A study of Mus musculus with 9 samples.

Results

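The genes described here are the mouse genes named Spata (spermatogenesis associated) or Tex (testis expressed) followed by a number, names that were mostly given because a transcript was first found in the testis. The name rule found 70 genes among the 55414 listed. A single gene among them is not reported here. The remaining 69 genes, 30 Spata and 39 Tex, each had 10 or more counts summed over the 9 libraries and were tested together with all other genes above that limit, 25128 in all. The rule matches names and uses no measured value, though it was proposed with earlier results of these data known.

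The libraries are polyA-selected RNA-seq of round spermatids (RS), the haploid cells that follow meiosis, sorted by FACS from adult Stra8-Tom mice on a C57Bl/6 background. These mice carry Stra8-iCre, which drives Cre in male germ cells from the spermatogonial stage on, and a CAG-lox-stop-lox-tdTomato reporter, so every group shares both transgenes and no group carries a mutation. Sorted RS were kept in culture for 24 h in 1 of 3 conditions, all with 0.15% DMSO, and each condition gave 3 libraries. DMSO alone was the vehicle group. The oxamate group received 24 mM of oxamate, which blocks lactate dehydrogenase (LDH). The third group, called both compounds below, received the same oxamate dose and 0.3 mM octyl-L2HG, an ester of L-2-hydroxyglutarate (L-2HG) that enters cells. The comparisons ask which transcripts changed when LDH was inhibited and which changed when octyl-L2HG was supplied on top of the inhibitor. No group received octyl-L2HG without oxamate, or another octyl ester. An effect of L-2HG therefore cannot be told apart from one of the ester. The labels do not say whether the libraries of a group came from separate mice or cultures, so the p-values measure only the spread between these libraries, which may be technical.

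Spermatids build the sperm: the acrosome forms over the nucleus, the tail and its mitochondrial sheath are assembled, and histones give way to transition proteins and then protamines. Much of the RNA for this work is made in spermatocytes and round spermatids and stored, because transcription stops as the nucleus condenses. The Spata and Tex names cover unrelated proteins, from parts of the meiotic chromosome axis and the intercellular bridge to acrosome, connecting piece and mitochondrial sheath proteins, and some belong to machinery found in most cells. LDHC, the LDH of the testis, is one of the enzymes able to make L-2HG.

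Total counts ranged from 32339533 to 39888396 per library. Normalized counts, used below for every library value, are the deposited counts divided by the size factor of the library. All 8 round spermatid markers on the list were detected, with a summed normalized count of 60300 to 61900 in vehicle, 55600 to 57800 with oxamate and 55000 to 56700 with both compounds, and the highest sums for Sertoli cells, Leydig cells, macrophages, and peritubular and vessel cells were 62.9, 40.3, 124 and 83.3. Of the somatic markers, Gata4, Rhox5, Hsd3b1 and Insl3 had fewer than 10 counts over the 9 libraries. The others were detected, from 11 counts for Sox9 to 382 for Amhr2 and 620 for Adgre1. No somatic marker was called in any comparison. The 6 spermatogonial markers summed to 191 to 209, 234 to 248 and 228 to 239 in the 3 groups, with none called, and their part in the results below was not tested. The 6 spermatocyte markers summed to 8880 to 11000, 8500 to 9450 and 10200 to 10600, and Sycp2 was the 1 of them called, higher with both compounds than with oxamate alone. In bulk RNA, fewer cells of a type and less RNA per cell cannot be told apart.

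The members made up 1.37% to 1.40% of all counts in vehicle, 1.31% to 1.38% with oxamate and 1.26% to 1.28% with both compounds. Per length, the levels covered almost the whole range of the transcriptome. Spata4 stood highest with a vehicle mean of 2677 TPM (transcripts scaled for length and depth) ± 292 (SD, n = 3), then Spata20 at 1448 ± 80.0, Spata21 at 1362 ± 79.8, Tex33 at 1192 ± 32.5 and Spata6, whose protein builds the connecting piece between head and tail, at 905 ± 43.7. The ranges of Spata20 and Spata21, 1356 to 1501 and 1270 to 1410 TPM, overlapped, while Spata4 and Tex33 lay clear of their neighbours. The median member was at 82.8 TPM, against 1.75 TPM for all genes tested. At the other end, Spata13, a guanine nucleotide exchange factor, Spata22, a partner of MEIOB in meiotic recombination, and Tex19.1 were at 0.0507, 0.0858 and 0.157 TPM. Of the 50-base windows of the longest Spata22 transcript 79.7% also occur in Gm49340. Reads of Spata22 may therefore have been divided or dropped in counting, and its level is uncertain.

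RefSeq promoter windows (GRCm38.p6) were matched by symbol for 58 of the 69 members. In the 250 bases before the start, the letters ACAATGG, the core bound by SOX proteins, were read on either strand in 7 of the 58 members (12.1%), against 3.1% of the 15650 tested genes with a window and 3.5% of all 27025 genes in the table. SOX30, a SOX protein of the testis, is known to act in round spermatids. The 7 members are shown because this was the motif whose share among members stood furthest above that of all genes. Each stretch of 61 bases is written 5′ to 3′ on the strand of the gene, with the core in capitals, as ACAATGG or as its reverse complement CCATTGT.
Spata25, chr2:164828579-164828639, minus strand: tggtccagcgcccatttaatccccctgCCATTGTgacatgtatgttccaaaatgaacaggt
Spata31d1d, chr13:59731784-59731844, minus strand: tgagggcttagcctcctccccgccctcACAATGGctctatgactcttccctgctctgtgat
Tex36, chr7:133602161-133602221, minus strand: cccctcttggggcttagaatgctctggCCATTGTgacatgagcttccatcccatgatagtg
Tex50, chr1:161159329-161159389, minus strand: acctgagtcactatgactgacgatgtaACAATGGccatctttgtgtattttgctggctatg
Spata9, chr13:75967673-75967733, plus strand: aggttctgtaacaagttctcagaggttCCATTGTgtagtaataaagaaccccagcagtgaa
Tex47, chr5:7304019-7304079, plus strand: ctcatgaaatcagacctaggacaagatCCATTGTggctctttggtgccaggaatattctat
Tex52, chr6:128375427-128375487, plus strand: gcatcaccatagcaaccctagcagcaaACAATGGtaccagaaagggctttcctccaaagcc

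The first 4 of these genes were lower with both compounds than in vehicle and the other 3 were not called in any comparison. The core was thus found in 4 of the 19 members with a window that were lower in that comparison (21.1%) and in 3 of the 39 that were not (7.7%). The other motifs split as well: GTTGCC was read in 21.1% and 10.3% of these groups, TGACG in 10.5% and 23.1%, and TATAAA in 0 genes and 12.8%. The full cyclic AMP response element TGACGTCA, the site of CREM in spermatids, was read in 0 of 58 members and in 2.5% of tested genes. Its part TGACG was read in 19.0% of members and 25.1% of tested genes, the X-box part GTTGCC in 13.8% and 13.1%, and the TATA box TATAAA in 8.6% and 10.5%. These shares are descriptions of the letters in the window.

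Oxamate alone changed few of these genes. Compared with vehicle, 5 of the 69 members were called at an adjusted p under 0.05 in edgeR's quasi-likelihood test, with Spata2 and Tex13b higher and Tex37, Tex44 and Spata32 lower. The 2 higher members are 2.9% of the list, and 3.97% of all genes tested were called higher. The 3 lower members are 4.35%, and 1.22% of all genes tested were called lower. At an unadjusted p under 0.05 the count was 13 (18.8%, beside 17.3% of all genes tested), and the median log2 fold change of the members was -0.03, beside -0.01 over all genes tested. That median was -0.0613 without vehicle library 3 and -0.00222 without vehicle library 1.

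Spata2 encodes the adaptor that brings the deubiquitinase CYLD to the linear ubiquitin ligase complex. Its normalized counts were 179, 136 and 175 in vehicle, 312, 261 and 225 with oxamate, and 303, 314 and 312 with both compounds. Every treated library was above every vehicle library, and the oxamate libraries spread more widely than the others. Oxamate raised Spata2 1.64-fold (log2 0.71 ± 0.12 SE, adjusted p = 0.0011). Adding octyl-L2HG left it at 1.14-fold of oxamate alone (log2 0.19 ± 0.12, adjusted p = 0.363), and with both compounds it stood 1.87-fold above vehicle (adjusted p = 2.14e-05). Cyld and Rnf31, the partners on the list, were not called in any comparison. Spata2 shares 129 exon bases with Rnf114 on the opposite strand. The methods and labels name a stranded library kit (KAPA), and the strand setting of the counting is not given in the sources used here. Rnf114 itself was at 0.18 ± 0.08 on the log2 scale for oxamate against vehicle and 0.42 ± 0.08 for both compounds against vehicle.

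Tex37 and Tex44 were the members called lower at each step. Tex37, a protein seen inside the microtubules of the sperm tail, was at 920, 863 and 846 in vehicle, 669, 716 and 662 with oxamate, and 462, 477 and 538 with both compounds. The groups formed 3 separate levels with no overlap. Oxamate lowered Tex37 (log2 -0.36 ± 0.08, adjusted p = 0.0103), octyl-L2HG on top of oxamate lowered it further (log2 -0.49 ± 0.08, adjusted p = 0.000613), and the total difference from vehicle was -44.6% (log2 -0.85 ± 0.08, adjusted p = 5.02e-07).

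Tex44 gave the same order. Its counts were 598, 563 and 563 in vehicle, 435, 450 and 463 with oxamate, and 366, 377 and 372 with both compounds, again with no overlap. The steps were log2 -0.35 ± 0.08 (adjusted p = 0.00932) and -0.30 ± 0.08 (adjusted p = 0.0208). The calls of Spata2, Tex37 and Tex44 for oxamate against vehicle held in 9 of 9 fits that each left out 1 library and in 7 of 7 alternatives of scaling, filter or fit, while at an adjusted p under 0.01 Tex37 was no longer called. In contrast, the second step of Tex44 was lost without oxamate library 5 or 6 or any library with both compounds, and when every gene with at least 1 count was fitted.

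Spata32 was at 347, 397 and 405 in vehicle, 244, 280 and 329 with oxamate, and 281, 231 and 220 with both compounds. Oxamate lay below vehicle in every library, while the oxamate and combined groups overlapped. The oxamate call of Spata32 (log2 -0.43 ± 0.11, adjusted p = 0.0244) was lost without vehicle library 2, vehicle library 3 or oxamate library 5, with only the 2 groups compared and when corrected for transcript length and GC content, and the difference of both compounds from vehicle (log2 -0.68 ± 0.11, adjusted p = 0.000201) was called in all 9. Tex13b, an X-linked gene, was low throughout, with 8.0, 21.8 and 19.23 normalized counts in vehicle, 30.5, 34.6 and 37.3 with oxamate, and 22.5, 39.2 and 33.7 with both compounds. All treated libraries were above all vehicle libraries, and the values rest on few reads (log2 1.07 ± 0.29 for oxamate, adjusted p = 0.0297, called in 4 of 9 fits without 1 library).

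**Figure D1:**
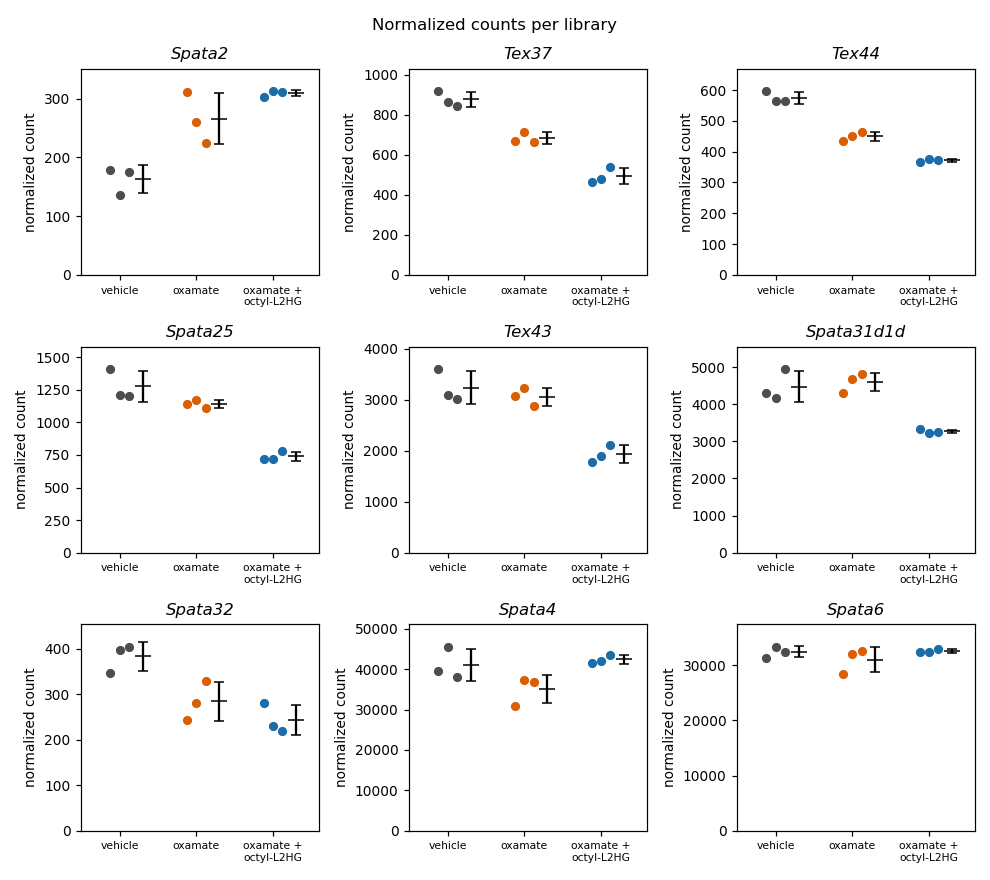
Normalized counts (y axis, from 0) of 9 Spata and Tex genes in each library, by group; points are libraries, and the bar beside them is the mean with its SD over 3 libraries. Spata2 is higher in both treated groups, Tex37 and Tex44 step down at each treatment, Spata25, Tex43 and Spata31d1d are lower with both compounds, and Spata6 stays within 28437 to 33409 in all 9 libraries.

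Supplying octyl-L2HG with oxamate lowered a larger set. Against oxamate alone 17 members were called, 1 higher (Spata4) and 16 lower. The lower genes are 23.2% of the members, beside 8.06% of all genes tested, and the higher gene is 1.45%, beside 3.18%. Against vehicle 27 members were called, 3 higher (Spata2, Tex13b and Tex14) and 24 lower, which is 4.35% beside 7.48% of all genes for higher and 34.8% beside 10.6% for lower. In 30 members (43.5%) every library with both compounds lay below every vehicle library, beside 18.5% of all genes. The joint test of any difference among the 3 groups called 27 members (39.1%), beside 19.8% of all genes.

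The members were expressed above most genes, and the comparison was therefore repeated above a mean of 100 normalized counts. Of the 59 such members 27.1% were lower with both compounds than with oxamate, beside 12.7% of the 10715 genes of that level, and 37.3% were lower than in vehicle, beside 13.6%. Higher in these comparisons were 1.69% and 3.39% of the members, beside 7.06% and 16% of the genes of that level. With oxamate against vehicle 1.69% of the members were higher and 5.08% lower, beside 8.08% and 1.59% of those genes. The joint test called 42.4% of these members, beside 33.5% of the genes of that level. The median log2 fold change of all members was -0.11 against oxamate and -0.12 against vehicle, and that of all genes tested was -0.04 and -0.05. The comparisons share libraries, so a value in one is not independent of the others.

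**Figure D2:**
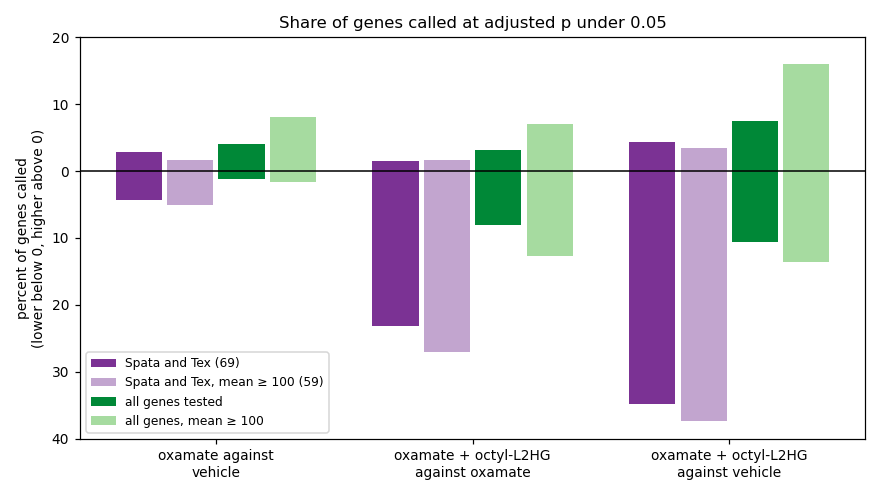
Percent of genes called higher (bars above 0) and lower (bars below 0) at an adjusted p under 0.05 in the 3 comparisons, for the 69 members, the 59 members and all genes with a mean normalized count of 100 or more, and all genes tested. With both compounds 34.8% of the members were lower than in vehicle, beside 10.6% of all genes tested.

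The largest falls against vehicle with both compounds were in Tex37, Spata25 and Tex43 among members with a mean count of 100 or more. Tex43, like Tex37 found inside sperm tail microtubules, was at 3607, 3092 and 3010 in vehicle, 3066, 3222 and 2870 with oxamate, and 1784, 1899 and 2117 with both compounds. Vehicle and oxamate overlapped, and the combined group lay well below them. The change from oxamate was -37.8% (log2 -0.68 ± 0.08, adjusted p = 1.79e-05), whereas oxamate alone gave log2 -0.08 ± 0.08 (adjusted p = 0.687). Spata25 was at 1412, 1209 and 1205 in vehicle, 1144, 1174 and 1112 with oxamate, and 721, 717 and 780 with both compounds. Each oxamate library was below each vehicle library by a small margin that was not called, and the combined group stood apart (log2 -0.65 ± 0.08 from oxamate, adjusted p = 2.18e-05). Spata25 shares 245 exon bases with Zswim1 on the opposite strand, which was at log2 0.04 ± 0.08 in the same comparison.

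The Spata31 genes are a multicopy family expressed in the testis. Of 5 members 3 were lower with both compounds in either comparison, and Spata31 and Spata31d1a were not called. Spata31d1d was at 4305, 4160 and 4957 in vehicle, 4311, 4678 and 4800 with oxamate, and 3323, 3232 and 3246 with both compounds. The combined group was low and tight, and the other groups overlapped (log2 -0.52 ± 0.07 from oxamate, adjusted p = 6.34e-05). Spata31d1c, at 704, 818 and 848, then 531, 690 and 725, then 483, 499 and 489, differed from vehicle by log2 -0.71 ± 0.10 (adjusted p = 3.42e-05). In Spata31d1c the combined group lay below all other libraries, and oxamate library 4 stood nearest to it. Spata31d1b, at 2186, 2256 and 2280, then 1921, 2144 and 2189, then 1665, 1592 and 1515, differed from vehicle by log2 -0.52 ± 0.07, and its neighbour Spata31d1a by -0.09 ± 0.08 (adjusted p = 0.48). Of the 50-base windows of the longest Spata31d1b transcript 24.9% also occur in Spata31d1a, so reads of this pair may have been divided or dropped in counting, and their values are uncertain.

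Among the genes of the neck, tail and sperm mitochondria, Spata20 and Spata19 were lower than vehicle with both compounds and Spata6 and Spata33 were not called. Spata20, a thioredoxin-like protein and the member with the highest mean count, was at 57892, 51022 and 57031 in vehicle, 60212, 54704 and 53542 with oxamate, and 47563, 48195 and 48099 with both compounds. The combined group lay below all other libraries (log2 -0.25 ± 0.06 from oxamate, adjusted p = 0.013, and -0.23 ± 0.06 from vehicle). The first call of Spata20 was lost without library 7 or 8, and the second without vehicle library 1 or 3 or any library with both compounds, and with every gene of at least 1 count. Spata19, which is needed for the mitochondrial sheath of the midpiece, was at 11150, 11067 and 10623, then 9568, 10275 and 10079, then 8629, 8745 and 9451. The 3 groups did not overlap, though only the difference of both compounds from vehicle was called (log2 -0.31 ± 0.06, adjusted p = 0.00122). Spata33, which anchors calcineurin to sperm mitochondria, ranged from 14752 to 18458 over the 9 libraries, and its partners Ppp3cc, Ppp3r2, Vdac2 and Vdac3 were not called.

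Of the sperm head genes, Spata46 was lower and Spata1 (13448 to 19017 over the 9 libraries), Spata16 (18034 to 21420.5) and Tex38 (2349 to 2772) were not called in the edgeR fit. Spata46, a protein of the sperm head, was at 8949, 7568 and 7719 in vehicle, 9100, 7693 and 7011 with oxamate, and 6228, 6567 and 7055 with both compounds. The highest combined library was above the lowest oxamate library, and the adjusted p was 0.0369 against oxamate and 0.0164 against vehicle. Among the fits without 1 library, the first of these calls held only without vehicle library 1 or 2 or oxamate library 6. Among the 7 other alternatives it held in 4, and was lost with the DESeq2 test, its size factors or filterByExpr. The second call was lost without vehicle library 1 or library 7 or 8 and when corrected for length and GC content. Spata16, an acrosome protein whose loss gives round-headed sperm, was at log2 0.15 ± 0.06 from oxamate (adjusted p = 0.0978), and was called there by the DESeq2 test, with filterByExpr and when corrected for length and GC content. In the same comparison Spata1 was called with DESeq2 size factors, with every gene of at least 1 count, without vehicle library 1 or oxamate library 6 and when corrected. Among the acrosome genes put on the partner list for Spata16, Gopc and Pick1 rose with both compounds against vehicle (log2 0.39 ± 0.10 and 0.27 ± 0.08, adjusted p = 0.00737 and 0.0244). Dpy19l2 and Zpbp, also listed for Spata16, were not called. Tex38 works with the palmitoyltransferase ZDHHC19, and Zdhhc19 fell from oxamate to both compounds (log2 -0.25 ± 0.07, adjusted p = 0.0271). Tex101, a glycoprotein of the germ cell surface, ranged from 319 to 396 and was not called, while Adam3, the sperm surface protein it helps to mature, rose from oxamate to both compounds (log2 0.25 ± 0.06, adjusted p = 0.00977).

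Of the 7 genes of meiosis and early germ cells, Tex14 was called higher with both compounds than in vehicle, and the other 6 were not called. Tex14, which keeps the bridges between germ cells open, was at 2578, 2801 and 2779 in vehicle, 2780, 2868 and 2951 with oxamate, and 3353, 3163 and 3123 with both compounds. The combined group was above all other libraries, 1.16-fold over vehicle (log2 0.22 ± 0.07, adjusted p = 0.0223), a call lost without vehicle library 1 or library 7 or 8 and with total counts as the scaling. Tex15, which acts with the piRNA pathway in silencing retrotransposons, had 1 vehicle library at 4545 beside 6124 and 6331. It was at 5818, 7587 and 7370 with oxamate, and at 6055, 6279 and 6297 with both compounds. It was not called in the edgeR fit, but was for oxamate against vehicle with every gene of at least 1 count, without oxamate library 4 and when corrected for length and GC content. Piwil2, its partner, rose with both compounds against vehicle (log2 0.29 ± 0.09, adjusted p = 0.0255). Tex12, a synaptonemal complex protein, was at 30.9 to 50.4, and of its 4 complex partners Syce1 rose and Syce2 fell from oxamate to both compounds (log2 0.27 ± 0.07 and -0.49 ± 0.06), while Syce3 and Sycp1 were not called (log2 -0.06 ± 0.08 and 0.05 ± 0.08). Tex11 (117 to 152), Tex19.1, Tex19.2 and Spata22 were not called, and Tex19.1 and Spata22 had at most 6.67 normalized counts in any library. The count of Spata22 is uncertain because of its shared windows.

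Of the 10 genes used by many cell types, Spata2 was higher, as given above, and Spata2l was lower in 1 comparison. Spata2l, its paralogue, was at 986, 880 and 983 in vehicle, 1173, 1062 and 1077 with oxamate, and 924, 961 and 934 with both compounds. Every oxamate library was above the other 6. Of these steps only the second was called (log2 0.22 ± 0.08, adjusted p = 0.102, then -0.26 ± 0.08, adjusted p = 0.0303), and it was lost without vehicle library 3, oxamate library 5 or any library with both compounds, with the DESeq2 test or its size factors, and with every gene of at least 1 count. Spata2l shares 417 exon bases with Cdk10 on the opposite strand, whose second step was log2 0.09 ± 0.10. Tex2, a lipid transfer protein of the endoplasmic reticulum at 40632 to 47166 normalized counts, Tex10, a subunit of a ribosome maturation complex at 7478 to 8714, Tex264, a receptor for the turnover of the endoplasmic reticulum by autophagy at 1538 to 1977, Spata5, an ATPase of ribosome maturation at 3463 to 4163, Spata7, a ciliary protein of photoreceptors at 11251 to 14002, and Tex261 (2038 to 2691), Spata13 and Spata5l1 were not called. Rpgrip1, the ciliary partner of Spata7, rose from oxamate to both compounds (log2 0.28 ± 0.07, adjusted p = 0.0161). Over the whole list of 33 partner genes, 0 were called with oxamate in edgeR or DESeq2 (6 at an unadjusted p under 0.05 in edgeR), 3 rose and 2 fell from oxamate to both compounds, and 4 rose and 1 fell against vehicle. The 5 called in each of the last comparisons are 15.2% of the partners, beside 11.2% and 18% of all genes tested, and DESeq2 called 7 and 6.

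No member was called higher with oxamate and then lower with octyl-L2HG, or the reverse, by edgeR or by DESeq2 at an adjusted p under 0.05. At an unadjusted p under 0.05 in edgeR, Spata2l did the first and Spata4 the second. Spata4, highest of all members per length, was at 39603, 45625 and 38071 in vehicle, 30972, 37346 and 36927 with oxamate, and 41571, 42101 and 43625 with both compounds. Oxamate lay below the other groups in every library, with library 4 lowest. The fall was not called (log2 -0.23 ± 0.08, adjusted p = 0.1) and the rise was (log2 0.25 ± 0.08, adjusted p = 0.0376). That call was lost without oxamate library 4, without any 1 of the 3 libraries with both compounds, and with total counts as the scaling. Without oxamate library 4, Spata31 was called higher with oxamate and then lower with octyl-L2HG.

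**Figure D3:**
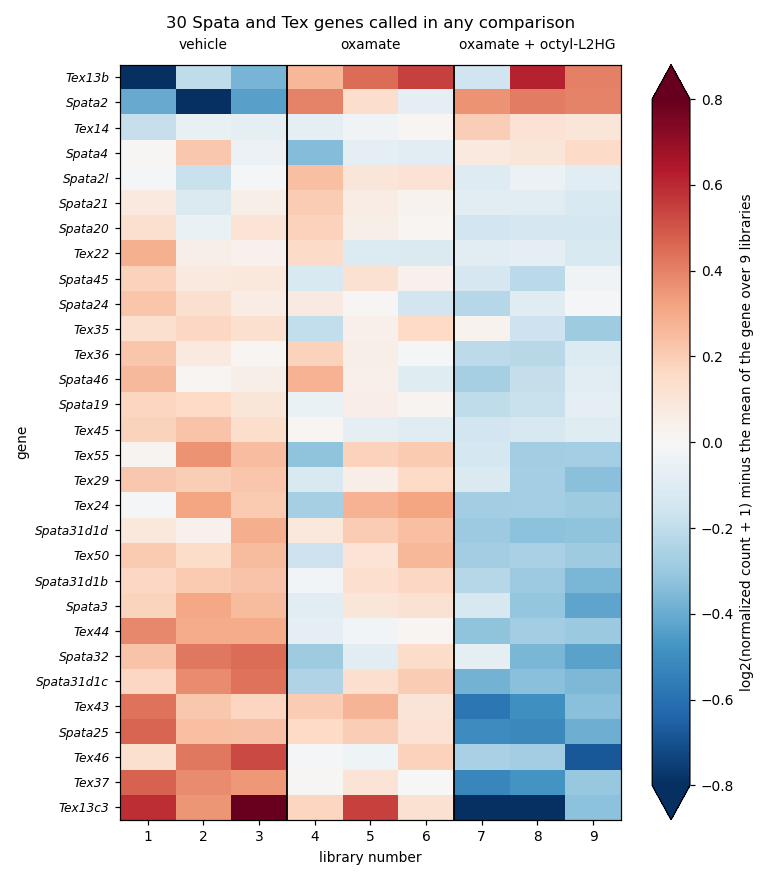
The 30 members called in at least 1 comparison (rows, ordered by the fold change of both compounds against vehicle) in the 9 libraries (columns); colour is log2(normalized count + 1) minus the mean of the gene over the 9 libraries, with the scale ending at 0.8 either way. Most rows turn from red to blue in libraries 7 to 9, and oxamate library 4 is bluer than libraries 5 and 6 in rows such as Tex24, Tex55 and Spata31d1c.

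The other members called were mostly genes without a role given here. With both compounds Spata3, Tex29, Tex24, Tex50 and Tex36 fell in both comparisons, Spata21 in that with oxamate, and Tex22, Spata45, Spata24, Tex35, Tex45, Tex55, Tex46 and Tex13c3 in that with vehicle. The 24 members lower than vehicle had changes from -14.6% (Spata20) to -69.4% (Tex13c3), and Tex13c3 had at most 10.1 normalized counts in any library. Tex24 was at 970, 1220 and 1133, then 816, 1188 and 1223, then 809, 814 and 806. Its oxamate library 4 stood next to the combined group, far from the other oxamate libraries, and its call against oxamate (log2 -0.43 ± 0.11, adjusted p = 0.0155) was lost without oxamate library 5 or 6 or any library with both compounds and when corrected for transcript length and GC content. Of its 50-base windows 32.7% occur in other genes, mostly Gm6853, so its values are uncertain. Spata24 shares 47.6%, all with SPATA24, an overlapping annotation on the same strand that has no counts under that name in the deposited table. Spata21 was at 52672, 45964 and 51522, then 57332, 51955 and 50941, then 46929, 47029 and 45757. The combined group lay below every oxamate library and overlapped vehicle, and the call (log2 -0.22 ± 0.07, adjusted p = 0.0293) was lost without vehicle library 3, oxamate library 5 or any library with both compounds, with the DESeq2 test or its size factors, and with every gene of at least 1 count. In all, 30 members were called in at least 1 comparison and 39 in none.

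Oxamate library 4 was the lowest of its group for 42 of the 69 members, and libraries 5 and 6 for 9 and 18. The median member stood at -0.08 on the log2 scale from its vehicle mean in library 4, at -0.01 and 0.01 in libraries 5 and 6, and at -0.06, -0.09 and -0.10 in libraries 7 to 9. The scatter between pairs of libraries was taken as chi-square per degree of freedom over genes. It was 18.7 and 23.3 for library 4 with 5 and 6, and 2.1 for 5 with 6. In vehicle it was 11.9 and 11.3 for library 1 with 2 and 3, and 6.48 for 2 with 3. In Tex55 and Spata31d1c vehicle library 1 was also the lowest of its group, while in others such as Spata4 it was not. Whether libraries 1 and 4 share a source was not tested. Without library 4 the oxamate comparison called 11 members, 5 higher and 6 lower, in place of 5, and 22 in place of 16 were lower with both compounds than with oxamate. The counts over all genes rose as well, from 1303 to 2288 and, for both compounds against oxamate, from 2823 to 4415 in either direction. Of the 24 members lower than vehicle with both compounds, 16 were called in every one of the 9 fits without 1 library, and of the 16 lower than oxamate 5 were: Tex37, Tex43, Spata25, Spata31d1d and Spata31d1b.

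Transcripts for chromatin packaging also fell. Tnp1 and Tnp2, the transition proteins, and Prm1 and Prm2, the protamines, were lower in all 3 comparisons. Prm1 was at 5203, 4960 and 4583 in vehicle, 3551, 3647 and 3575 with oxamate, and 2976, 2868 and 2913 with both compounds, a step pattern with no overlap, as for Tex37 and Tex44. In contrast Acrv1 and Acr, of the acrosome, were higher with both compounds than in vehicle (log2 0.25 ± 0.07 and 0.21 ± 0.06), while the other 2 markers of the list, Spaca1, also of the acrosome, and Sun5, were not called (log2 0.06 ± 0.07 and 0.06 ± 0.06). The part of any shift in spermatid stage in the results was not tested.

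The members that fell were mostly short. The longest annotated transcript of the 24 members lower than vehicle with both compounds had a median of 1054 bases and 52.0% GC, and that of the 44 others with a known length 2126 bases and 47.1% GC, while the median over all genes tested was 2485 bases. Against oxamate the medians were 1458 bases for the 16 lower members and 1679 for the rest. In a fit that removed the trend with transcript length and GC content in each library, added after seeing the data, 21 members were lower than vehicle (30.9% of 68, beside 11.3% of all genes) and 10 were higher (14.7%, beside 9.43% of all genes), and 19 of the 24 lower members were called in both fits. Against oxamate 15 were lower (22.1%, beside 8.78% of all genes), 13 of them among the 16 above, and 4 were higher (5.88%, beside 7.54% of all genes).

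**Figure D4:**
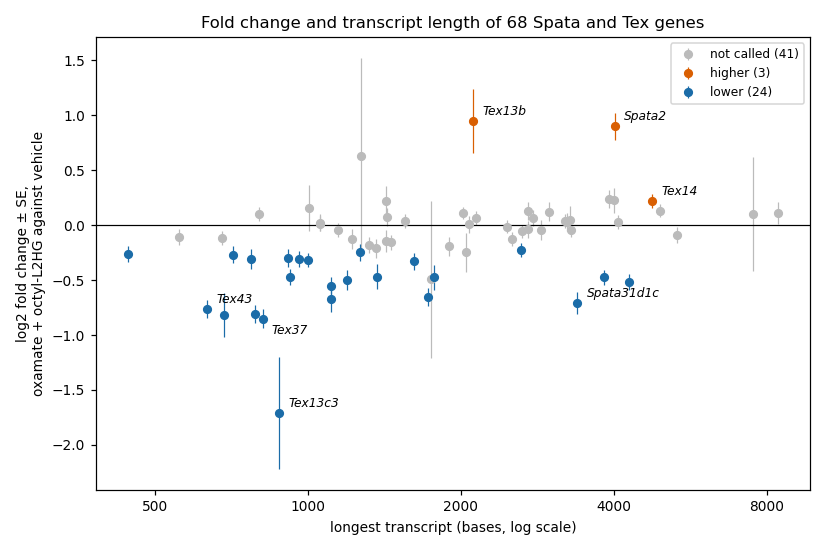
Log2 fold change of both compounds against vehicle, with its standard error (y axis), and the length of the longest annotated transcript on a log scale (x axis) for the 68 members with a length; colour gives the call. The 24 lower members have a median of 1054 bases and the 44 others 2126, and Spata31d1b, Spata31d1c and Spata31d1d are among the long ones that fell.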

How the data were processed

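RNA of sorted RS was sequenced as 9 polyA-selected libraries. As described in the study's methods and processing notes, the authors trimmed reads with cutadapt (2.10), aligned them to GRCm39 with TopHat2 (2.1.1), counted reads per gene with HTSeq (2.01) and normalized them with DESeq2 (1.36.0). The strand setting of the counting is not given in the sources used here. The deposited table holds raw counts and normalized values, a signal equal to the deposited count divided by a size factor, and of these columns 0 were left unused. The further columns, test results of the authors' own comparison, were not used. Counts were blank for 6250 genes.

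Raw counts of the 25128 genes with 10 or more counts were fitted in edgeR (4.0.16, R 4.3.3) with TMM scaling and group as the only term. Quasi-likelihood p-values were adjusted by Benjamini-Hochberg over all genes and called under 0.05. DESeq2 (1.42.0), other scalings and filters, a threshold of 0.01 and fits without each library were alternatives, and the procedure was tested on simulated data. TPM, length, GC content and shared windows used GENCODE vM21 transcripts matched by Ensembl ID, and the files' build differs, so exon overlaps are those of GRCm38.

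The members and gene lists were chosen with earlier results of these data known. Library values, or the range where no comparison called the gene, were given for genes with a mean normalized count of 100 or more in 5 roles. These were meiosis, sperm head, neck and tail, sperm surface and many cell types. They were also given for the 6 with the largest called changes in each comparison, the 5 with the highest mean, and others chosen after their values were seen (Tex13b, Spata31d1b).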

Additional observations from a re-analysis of the deposited data

How the results depend on the processing

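No called value of a named member changed its direction under any alternative. Of the 90 values of named members, 21 changed sign under at least 1 alternative, none of them called in either fit, among them Tex43, Tex24, Spata46 and Spata20 for oxamate against vehicle and Tex15 for both compounds against vehicle. The median member fold change (log2) from oxamate to both compounds was -0.0793 with the DESeq2 test and with DESeq2 size factors, -0.151 scaled to total counts, -0.0614 with every gene of at least 1 count, -0.0859 with filterByExpr, -0.0846 with only the 2 groups compared and -0.0595 corrected for length and GC content. Against vehicle it was -0.094 with DESeq2 test or size factors, -0.179 scaled to total counts, -0.0705 with every gene and -0.0528 corrected. The median over all genes moved too, from -0.0384 and -0.0452 in these comparisons to -0.0821 and -0.108 under total counts, 0 and 0 with every gene and -0.00236 and -0.0255 corrected. Called members for oxamate against vehicle numbered 8 with every gene of at least 1 count (beside 4.35% of all genes), 2 at 0.01 (2.40%), 3 with only the 2 groups (2.88%) and 9 corrected (6.67%). From oxamate to both compounds there were 8 at 0.01 (5.02%), and for any difference 16 (11%). Among the 90 values above, calls gained under at least 1 alternative, beside those of Spata1, Spata16 and Tex15 given above, were those of Spata31d1c, Spata4, Spata5 and Tex38 for oxamate, of Spata2, Spata32, Spata19, Tex14, Tex15 and Tex261 from oxamate to both compounds, and of Tex2, Tex264, Spata21, Spata4, Spata16 and Tex38 against vehicle. Corrected for length and GC content, 1 member, Tex15, rose with oxamate and fell with octyl-L2HG.

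Without 1 library, the medians ranged from -0.0613 (without vehicle 3) to -0.00222 (without vehicle 1) for oxamate against vehicle, from -0.128 (without oxamate 4) to -0.0852 (without vehicle 3) for both compounds against oxamate and from -0.115 to -0.0916 (without vehicle 2) against vehicle. Called members ranged from 3 (without vehicle 3 or oxamate 5) to 11 (without oxamate 4) for oxamate, from 8 (without library 7 or 8 of both compounds) to 24 (without oxamate 4) for both compounds against oxamate, with 9 without library 9 and 10 without oxamate 5, from 17 (without library 8) to 36 (without oxamate 4) for any difference, and from 0 to 1 (Spata31, without oxamate 4) for genes raised by oxamate and lowered by octyl-L2HG. Over all genes these counts ranged from 659 to 2288, from 1396 to 4415 and from 3154 to 7328 in the first 3 of these, each highest without oxamate 4. The cause of these changes was not tested. With 3 libraries a group, precision is limited for low genes such as Tex13b and Tex13c3. No paired analysis was run. The replicate numbers differ between the groups, and the labels do not say whether any libraries of different groups belong together.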
